A study of Mus musculus with 6 samples.

Results

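The genes described here encode the cytoskeleton of young neurons and the machinery of the growth cone, the motile tip of an extending axon. They are 10 genes chosen by name: Dcx, Tubb3, Map2, Mapt, Map1b, Stmn2, Gap43, Dpysl3, Nefl and Nefm. Every probe set annotated to one of them alone was taken, which gave 25 of the 45037 probe sets of the array and 10 of its 18193 named genes. Dcx, Map2 and Mapt had 4 probe sets each, Map1b and Dpysl3 had 3, Stmn2 and Nefl had 2, and Tubb3, Gap43 and Nefm had 1.

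The tissue was dorsal telencephalon of mouse embryos at embryonic stage E14.5, on a C57BL\6 background and labelled male throughout. The 3 cKO arrays hold RNA of embryos whose genotype label is a knockout of the histone methyltransferase ESET, which is encoded by Setdb1, made with Emx2Cre. The 3 WT arrays hold RNA of wild-type embryos, and whether these carried Cre is not given. The design text speaks of single embryos, taken here as 1 per array. Emx2 is active in progenitors of the dorsal forebrain, so the Cre acts in them and their offspring, while blood, vessels and neurons arriving from other regions lie outside that lineage. Which exons are deleted is not given in the sources used here.

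Microtubules run the length of the growing neurite and push into the growth cone, where an actin network steers it. Doublecortin, MAP2, tau and MAP1B bind and stabilise microtubules, with MAP2 later kept to dendrites and tau to axons, and stathmin-2 takes tubulin off their ends. GAP-43 and CRMP4 link growth cone signals to the cytoskeleton, and neurofilaments, which come in as axons mature, set axon calibre. In the cortex these genes switch on as cells leave the ventricular zone and become migrating neurons, so they also serve as neuronal markers.

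Promoter sequence was at hand for 4 of the 10 genes in a RefSeq table of build GRCm38.p6. The 250 bases before each start site of these 4 genes are shown. They read 5′ to 3′ on the gene's strand, and capitals mark every CG dinucleotide, the site of DNA methylation in mammals.
Map2 (chr1:66175079-66175328, plus strand): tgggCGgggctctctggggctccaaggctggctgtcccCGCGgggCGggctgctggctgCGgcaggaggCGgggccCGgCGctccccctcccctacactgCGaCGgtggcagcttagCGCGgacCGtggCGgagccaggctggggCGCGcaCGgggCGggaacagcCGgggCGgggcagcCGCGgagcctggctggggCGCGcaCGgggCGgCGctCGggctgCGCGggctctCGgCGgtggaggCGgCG
Tubb3 (chr8:123411303-123411552, plus strand): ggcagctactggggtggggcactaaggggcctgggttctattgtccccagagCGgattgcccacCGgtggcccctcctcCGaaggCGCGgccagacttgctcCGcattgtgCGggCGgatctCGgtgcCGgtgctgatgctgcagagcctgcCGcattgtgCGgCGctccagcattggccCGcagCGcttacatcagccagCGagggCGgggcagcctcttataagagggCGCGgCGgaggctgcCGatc
Map1b (chr13:99516603-99516852, minus strand): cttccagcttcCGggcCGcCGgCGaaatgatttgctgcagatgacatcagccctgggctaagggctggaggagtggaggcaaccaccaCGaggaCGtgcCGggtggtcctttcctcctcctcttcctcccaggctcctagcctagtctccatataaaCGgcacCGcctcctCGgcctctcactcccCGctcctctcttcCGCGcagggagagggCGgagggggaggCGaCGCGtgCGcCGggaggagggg
Dcx (chrX:143933220-143933469, minus strand): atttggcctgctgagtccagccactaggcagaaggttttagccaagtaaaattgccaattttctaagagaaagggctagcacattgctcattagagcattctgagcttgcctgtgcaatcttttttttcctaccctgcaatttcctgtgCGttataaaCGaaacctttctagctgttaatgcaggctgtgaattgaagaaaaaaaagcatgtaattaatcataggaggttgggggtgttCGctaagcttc
Map2 had 34 CG dinucleotides in this window, Tubb3 21, Map1b 19 and Dcx 3, where the median of all 32851 promoters in the table was 6. A count of 34 or more was found in 3.5% of those promoters and a count of 3 or more in 71.0%. A second start site of Dcx lies 95 bases away, and its own window also held 3. The motif CAGATG, a site of neuronal bHLH factors, was searched on both strands. It was present once in the Map1b window, 213 bases before the start, and not in the other windows, against 14.4% of all promoters. No array value here bears on methylation or binding at these promoters.

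All levels below are the authors' deposited intensities, which are linear. Median intensities ran from 98.7 to 119 on cKO arrays and from 91.1 to 113 on WT arrays. Setdb1 was at 633 ± 115 in cKO and 1126 ± 81.9 in WT on its brightest probe set (SD, n = 3), without overlap (log2 fold change -0.83, adjusted p = 0.237 in limma). The arrays numbered 3 stood apart. Xist, which is transcribed from the inactive X chromosome of females, read 8811 on cKO 3 and 17294 on WT 3, between 34.1 and 59.0 on the others, although all embryos are labelled male. The Y-linked gene Eif2s3y read 961 on cKO 3 and 22.2 on WT 3, and between 1927 and 2186 on the others. The globin gene Hba-x read 19913 on cKO 3 and 20068 on WT 3, and between 270 and 513 on the others. The 10 cytoskeletal genes are therefore also given without these arrays.

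Of the microtubule-associated proteins, Mapt, the gene of tau, showed the clearest separation of the genotypes. Its brightest probe set, 1424719_a_at, whose suffix marks probes shared by transcript variants of 1 gene, read 3551, 3427 and 3221 on the cKO arrays, against 5124, 4901 and 4826 on the WT arrays. All 3 cKO arrays lay below all 3 WT arrays. The log2 fold change, cKO minus WT, was -0.54 (SE 0.13, 95% interval -0.86 to -0.23), but the adjusted p over all probe sets was 0.296 in limma. Probe set 1424718_at read 2835, 2751 and 2986 in cKO, against 4272, 3937 and 4239 in WT, and the fold change on the log2 scale was -0.54 (SE 0.13). Here too the highest cKO array lay below the lowest WT array. Probe set 1455028_at read 2648, 2561 and 2499 in cKO, against 3895, 3507 and 3146 in WT, which gave -0.45 (SE 0.15). The dimmest, 1417885_at, read 980, 772 and 719 in cKO, against 1230, 1116 and 1042 in WT, which gave -0.46 (SE 0.17). The groups did not overlap on any of the 4 probe sets, which share 1 gene and the same 6 RNA samples and so are not independent of each other.

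None of the 4 Mapt probe sets passed the threshold of 0.05 on the adjusted p (lowest 0.296). In the gene table, which keeps the brightest probe set of each gene and adjusts over 18193 genes, Mapt had an adjusted p of 0.146 with limma, for a change of -31.3%. In that table it passed under 2 of the other settings tried, with the dimmer probe sets left out (adjusted p = 0.0397) and with a variance trend and robust estimation (adjusted p = 0.0249). Without both arrays numbered 3 the log2 fold changes of the 4 probe sets ran from -0.55 to -0.42 (adjusted p from 0.4997 to 0.700), so the difference was about as large on the 4 arrays that did not stand apart. RNA of a tissue mixes many cells, and fewer cells of a type cannot be told apart from less RNA per cell, for Mapt as for every gene below.

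Map2, the dendritic partner of tau, was measured on 4 probe sets and did not separate. The brightest, 1434194_at, read 14158, 14232 and 12835 in cKO, against 15304, 15459 and 12635 in WT. The highest and the lowest array were both WT, so the groups overlapped fully, at a log2 fold change of -0.07 (95% interval -0.43 to 0.29, adjusted p = 0.980 in limma). Among the other 3 probe sets, 1421328_at was lower on every cKO array, by the narrowest of margins, with 342.1 on cKO 3 against 342.2 on WT 3, and its log2 fold change was -0.24 (adjusted p = 0.859). The remaining probe sets, 1440699_at and 1421327_at, gave -0.08 and -0.02 with overlap.

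Map1b, the first of these proteins to appear in growing axons, had the widest spread of the bright genes. Its brightest probe set, 1450397_at, read 8282, 5056 and 12290 in cKO, against 9938, 6660 and 14492 in WT. The order of the arrays was the same in each genotype, with number 2 lowest and number 3 highest, and the highest array exceeded the lowest 2.43-fold in cKO and 2.18-fold in WT. The log2 fold change was -0.30 (95% interval -1.27 to 0.67, adjusted p = 0.956 in limma), which as a ratio of cKO to WT runs from 0.414 to 1.59. With the replicate number as a block, which rests on a shared number only, the interval was -0.64 to 0.04 (adjusted p = 0.532 in limma). Probe set 1421851_at kept that order of arrays at a dimmer level and gave -0.14, and 1421850_at gave 0.12.

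Dcx, whose protein is needed for cortical neurons to migrate, was measured on 4 probe sets that did not point one way. The brightest, 1418139_at, read 11570, 11069 and 10626 in cKO, against 12910, 12838 and 11349 in WT. Only cKO 1 exceeded the lowest WT array. The log2 fold change was -0.16 (95% interval -0.49 to 0.17, adjusted p = 0.898 in limma). The next, 1418141_at, read 4749, 6052 and 6536 in cKO, against 4921, 5740 and 5270 in WT, which gave 0.11 on the log2 scale. Of the dim probe sets, 1418140_at was lower on every cKO array, from 332 to 400 against 403 to 492 in WT, at -0.25 (adjusted p = 0.824), and 1448974_at overlapped at 0.12. Over the 6 arrays, log2 values of 1418139_at correlated with those of 1418141_at at -0.53, which describes these arrays only, so the choice of probe set decides the sign for Dcx.

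Tubb3 encodes the beta-tubulin isotype used as a standard neuronal marker. It was measured on 1 probe set, 1415978_at, which read 12225, 11603 and 11665 in cKO, against 12537, 13713 and 11566 in WT. The groups overlapped, with the lowest array in WT, at a log2 fold change of -0.09 (95% interval -0.42 to 0.25, adjusted p = 0.966 in limma). As a ratio of cKO to WT this interval runs from 0.747 to 1.18.

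**Figure D1:**
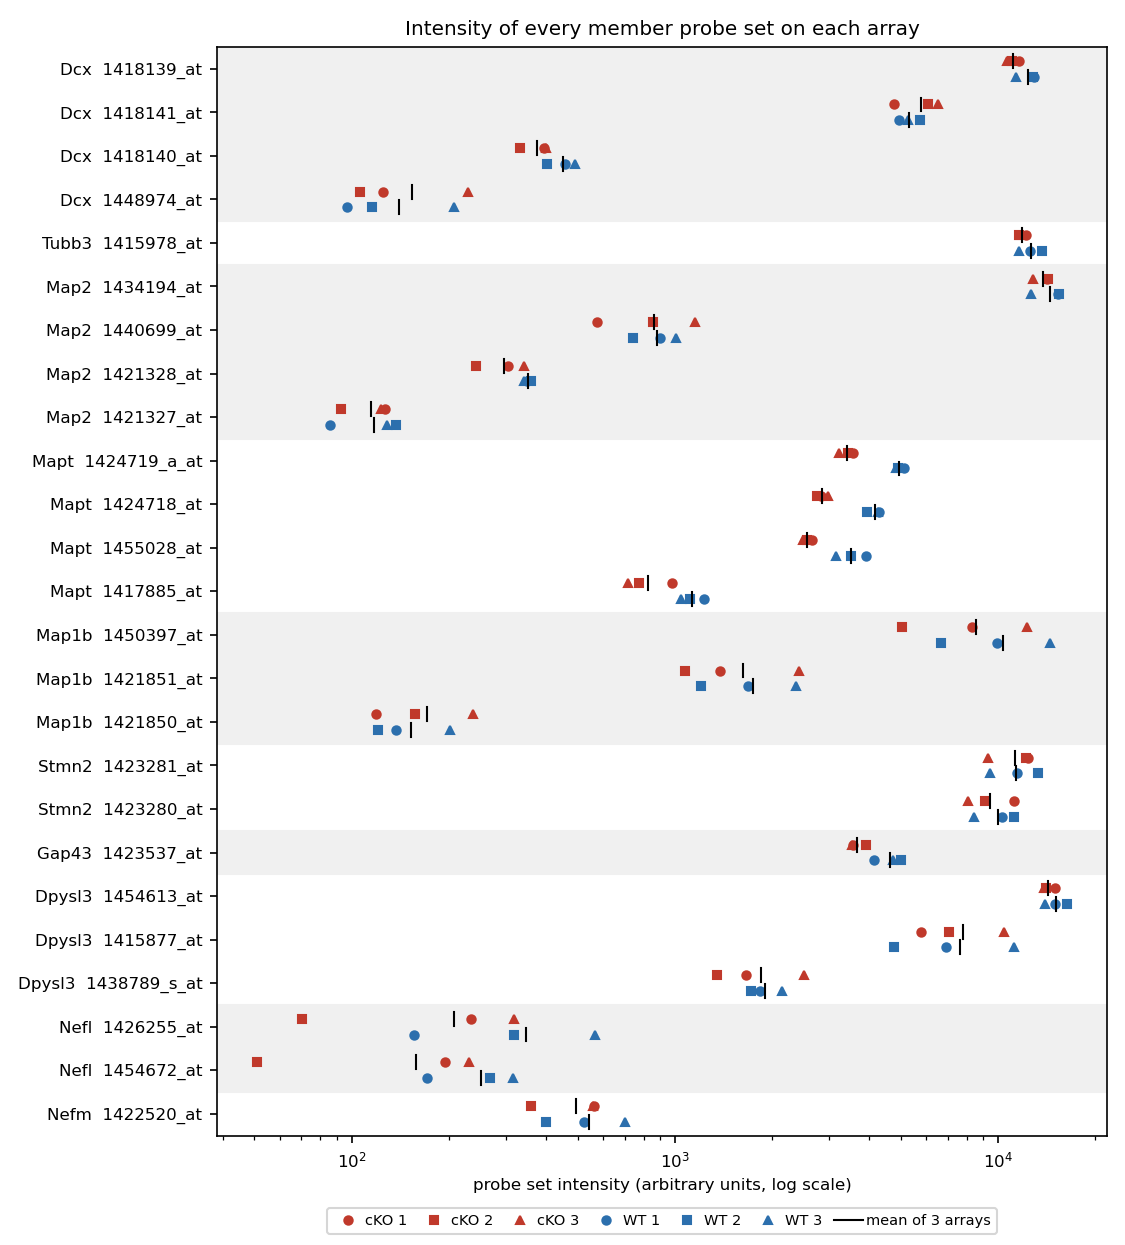
Intensity of the 25 probe sets of the 10 genes on each array, on a log axis, with the 3 cKO arrays (red) above the 3 WT arrays (blue) and a black bar at each mean. The 4 Mapt probe sets show every cKO array below every WT array, while Map1b, Nefl and Nefm spread widely within each genotype.

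Of the growth cone genes, Gap43, a membrane phosphoprotein of growing and regenerating axons, came next to Mapt. Its probe set, 1423537_at, read 3563, 3897 and 3534 in cKO, against 4117, 4993 and 4746 in WT. Every cKO array lay below every WT array. The log2 fold change was -0.33 (SE 0.15, 95% interval -0.68 to 0.02) with an adjusted p of 0.672 in limma, and it was -0.28 (adjusted p = 0.809) without both arrays numbered 3.

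Stmn2, also called SCG10, was at nearly the same mean in both genotypes. Probe set 1423281_at read 12394, 12227 and 9316 in cKO, against 11448, 13305 and 9428 in WT. Both low values were on arrays numbered 3. On the log2 scale the difference was -0.01 (95% interval -0.49 to 0.47, adjusted p = 0.999 in limma), and its sign turned under quantile normalization and array weights. Probe set 1423280_at gave -0.08 and the same low arrays.

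Dpysl3, which encodes CRMP4 of the collapsin response mediator family, had 3 probe sets that differed in how the arrays ranked. The brightest, 1454613_at, read 15001, 14073 and 13839 in cKO, against 14974, 16276 and 13935 in WT, with overlap and a log2 fold change of -0.07 (95% interval -0.40 to 0.26, adjusted p = 0.974 in limma). Probe set 1415877_at read 5784, 7054 and 10455 in cKO, against 6908, 4763 and 11165 in WT, which gave 0.07 (95% interval -0.80 to 0.94). Both arrays numbered 3 were the lowest of their genotype on the first of these and the highest on the second, and log2 values of the probe sets correlated at -0.89 over the 6 arrays. The third, 1438789_s_at, whose suffix marks probes that can match more than 1 transcript, gave -0.09.

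The neurofilament genes Nefl and Nefm were variable at this stage, and Nefl was dim. Nefl, the light subunit, read 234, 70.2 and 318 in cKO on probe set 1426255_at, against 156, 319 and 568 in WT. The lowest array was cKO 2 and the highest WT 3, but the groups overlapped. The log2 fold change of -0.74 was the largest of the 10 genes in size, with a 95% interval from -2.24 to 0.76 (adjusted p = 0.895 in limma), which as a ratio of cKO to WT runs from 0.211 to 1.69. Leaving out 1 array moved it between -1.20 and -0.16, the second of these without cKO 2. Probe set 1454672_at ranked cKO 2 lowest and WT 3 highest too, with 51.1 and 316, and gave -0.78. Nefm, the medium subunit, whose gene lies near that of Nefl, read 564, 358 and 559 in cKO, against 522, 401 and 699 in WT. Its groups overlapped, at a log2 fold change of -0.12 (95% interval -0.77 to 0.53, adjusted p = 0.981).

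None of the 25 probe sets passed the threshold in either direction, where 0.275% of all probe sets did (0.224% higher and 0.0511% lower in cKO). At an unadjusted p under 0.05, 4 were lower in cKO, all of Mapt, and 0 were higher, against 3.33% and 4.57% of all probe sets, 7.9% in all. The groups did not overlap on 7, all with cKO below WT, against 6.07% of all probe sets in that direction, 7.47% in the other and 13.5% in either. Of the 7, 4 were Mapt's and the others belonged to Dcx, Map2 and Gap43. Of the 10 genes, 0 passed in the gene table, against 0.627% of all genes (0.385% higher and 0.242% lower in cKO). Mapt and Gap43 were lower there at an unadjusted p under 0.05, against 4.39% of all genes that were lower and 9.56% in either direction. The same 2 genes had groups that did not overlap, against 7.64% of all genes with cKO below WT, 7.9% with cKO above WT and 15.5% in either direction. The unadjusted 95% intervals lay within a 2-fold change in either direction for 21 of the 25 probe sets, the exceptions being both Nefl probe sets and the brighter 2 of Map1b.

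All 10 genes had a log2 fold change below 0 on their brightest probe set, from -0.74 for Nefl to -0.01 for Stmn2, with a median of -0.14. Over all 18193 genes the median was 0.01, and 48.8% were below 0. Most of the 10 genes are very bright, and bright genes leaned the same way. Of the 994 genes with a mean intensity above 4000, a limit set after the values were seen, 62.0% were below 0 with a median of -0.04, and all 8 of the cytoskeletal genes above it were below 0. Every cKO array lay below every WT array for 7.75% of the 994, against 7.64% of all genes. Whether brightness had a part in the signs of the 10 genes was not tested. Of the 25 probe sets, 21 were below 0, against 46.9% of all probe sets.

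**Figure D2:**
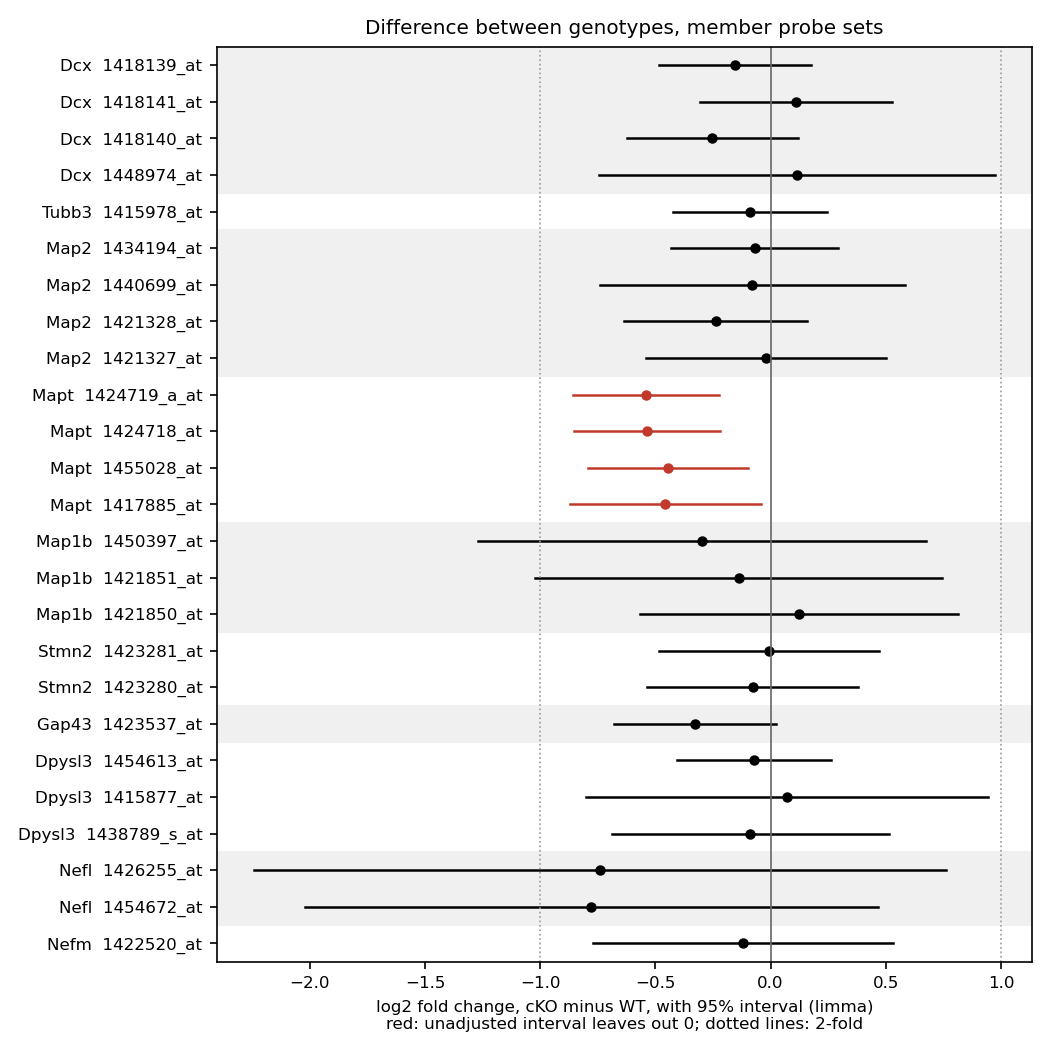
Log2 fold change, cKO minus WT, of each of the 25 probe sets, with the unadjusted 95% interval of the limma fit and dotted lines at a 2-fold change. The intervals of the 4 Mapt probe sets leave out 0 (red), those of the other 21 include it, and those of Nefl are the widest.

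Mapt was set against its fellow genes by 1 value per array, its log2 value minus the mean of the other 9 genes. Mapt was singled out after its values were seen, so this is a description. The difference between genotypes in this measure was -0.33. Of the cKO arrays, 2 of 3 lay below the lowest WT array. The exception, cKO 2, was the lowest of all arrays for Nefl (70.2), Map1b (5056) and Nefm (358), which lowers the mean of the other 9. Mapt itself read 3427 on cKO 2, below every WT array. An exact permutation test of 3 arrays against 3 cannot go below a two-sided p of 0.1, so it could not pass the threshold. It gave a p of 0.2 here. No other test of this difference was run, and nothing is called particular to Mapt.

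Several of these genes differed more between array 3 and the other arrays of a genotype than between genotypes. Log2 values on array 3 minus the mean of arrays 1 and 2 of the same genotype were 0.92 in cKO and 0.83 in WT for the brightest Map1b probe set, and 1.18 and 1.28 for the brighter Nefl probe set. They were 0.30 in cKO and 0.60 in WT for Nefm. Stmn2 ran the other way, at -0.40 in cKO and -0.39 in WT, as did the brightest probe set of Map2, at -0.15 and -0.28. Mapt moved little, between -0.27 and 0.10 over its probe sets and both genotypes. So did Gap43, at -0.08 in cKO and 0.07 in WT, and Tubb3, at -0.03 and -0.18. In all, 13 of the 25 probe sets were higher on array 3 in both genotypes and 9 were lower in both, so 88.0% shared their sign, against 66.1% of all probe sets.

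For Dcx, Map2, Dpysl3 and, by small shifts, Mapt, the direction differed between probe sets of 1 gene. The brightest probe set of each was lower on array 3 in both genotypes, and a dimmer one was higher in both, by 0.90 in cKO and 0.88 in WT for Dcx 1448974_at and by 0.71 and 0.96 for Dpysl3 1415877_at. The same arrays carried the high erythroid signal. The summed intensity of 7 erythroid genes ran from 11202 to 73879 on cKO arrays and from 12488 to 69283 on WT arrays. The part of blood or of sex in these shifts was not tested. With both arrays left out, 0 of the 25 probe sets passed, and the log2 fold changes of the brightest probe sets were -0.19 for Dcx, -0.14 for Tubb3, -0.12 for Map2, -0.52 for Mapt, -0.33 for Map1b, -0.0037 for Stmn2, -0.10 for Dpysl3, -0.71 for Nefl and -0.02 for Nefm. Among the dimmer probe sets the values then were 0.01 for Dcx 1418141_at, -0.21 for Map2 1440699_at, -0.36 for Map2 1421328_at, -0.23 for Map1b 1421851_at, 0.15 for Dpysl3 1415877_at, -0.24 for Dpysl3 1438789_s_at and -0.95 for Nefl 1454672_at.

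**Figure D3:**
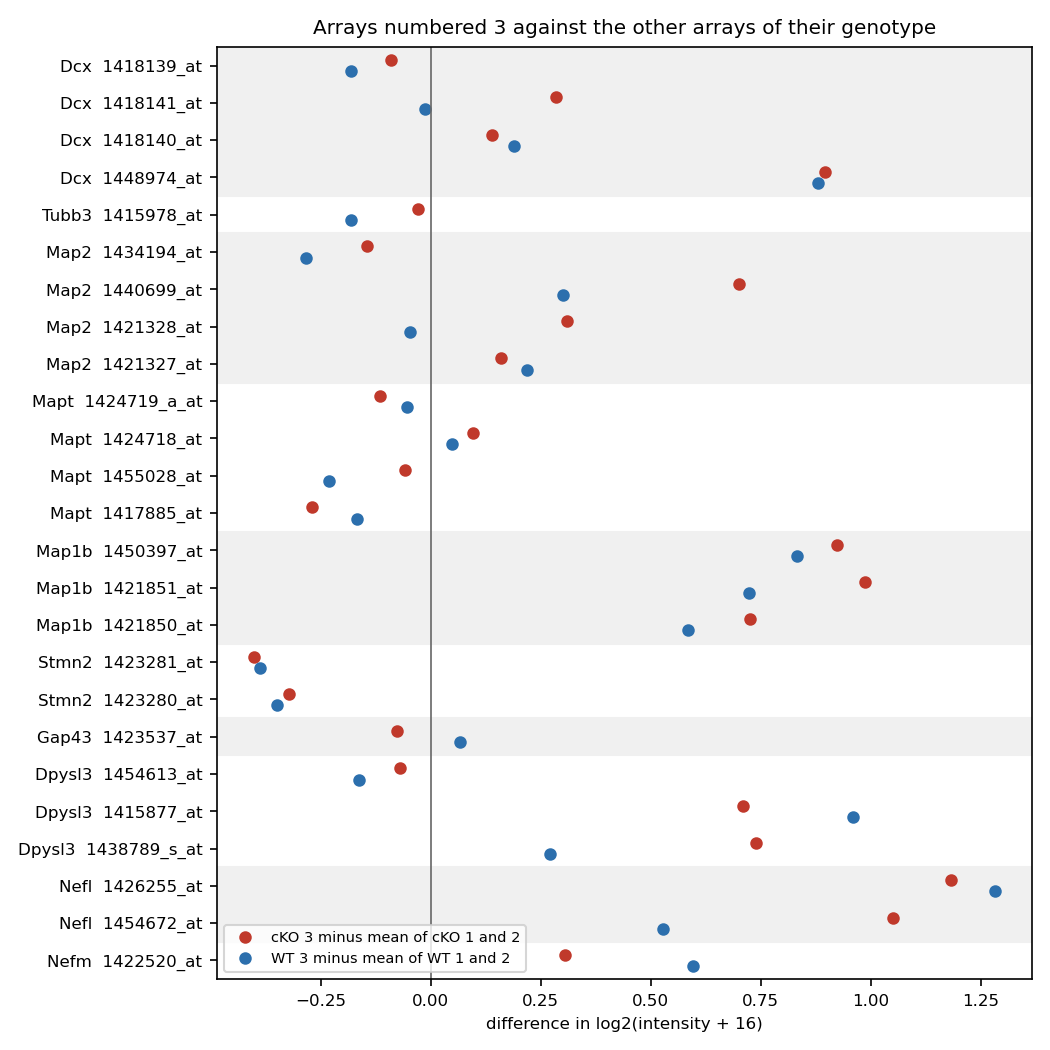
Log2 value on the array numbered 3 minus the mean of arrays 1 and 2 of the same genotype, for each probe set, in cKO (red, upper point) and WT (blue, lower point). Map1b and Nefl lie right of 0 and Stmn2 left of 0 in both genotypes. The Mapt points stay between -0.27 and 0.10, and those of Gap43 and Tubb3 between -0.18 and 0.07.

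The rest of the neuronal cytoskeleton was read from 10 lists of related genes, with 161 measured genes that are not among the 10. Of these, 1 fell and 0 rose past the threshold in the gene table, against 0.627% of all genes in either direction. The one that fell was Cap2, an actin monomer-binding protein. It read 57.6, 57.3 and 113 in cKO, against 299.98, 283 and 308 in WT, without overlap. Its log2 fold change was -1.82 (SE 0.24, adjusted p = 0.0407 in limma). The call was lost in 5 of the 6 fits that left out 1 array (adjusted p from 0.129 to 0.168), all but the one without cKO 3, and without both arrays numbered 3 (adjusted p = 0.0879). Of the 161 genes, 18 were lower and 1 was higher at an unadjusted p under 0.05, against 4.39% and 5.17% of all genes, and their median log2 fold change was -0.11.

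Medians of the lists below include those of the 10 genes that a list holds. The tubulin list had a median of -0.16 over 15 genes, with 13 below 0. Array probes for tubulins can cross-react, since these genes are close copies of each other. Tubd1, a tubulin of centrioles, had the smallest p, at -0.53 (adjusted p = 0.263 in limma), followed by Tubb4a at -0.67 with overlap and Tuba8 at 0.58 with every cKO array above WT. Tuba8 was dim, between 25.4 and 94.8 on all arrays, and its value was 0.76 with a pseudocount of 1 and 0.34 with 64 or without cKO 3. The list of microtubule-associated and plus-end proteins had a median of -0.14 over 28 genes, with 22 below 0. Besides Mapt, Map7d2, of a family that recruits kinesin-1, was at 0.51 with cKO above WT on all arrays (adjusted p = 0.256), the plus-end protein gene Mapre3 at -0.44 (adjusted p = 0.382) and Map4, the microtubule stabiliser of many cell types, at -0.29 (adjusted p = 0.459). With the mean of all its probe sets Map4 came to -0.02.

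Stathmins and severing enzymes had a median of -0.12 over 9 genes. Fignl1, an ATPase related to the severing enzyme fidgetin, was at -0.32, Stmn3, a stathmin of neurons, at -0.29 and the depolymerising kinesin Kif2a at -0.19, each with an adjusted p of 0.473 or more. With the mean of all probe sets Fignl1 came to 0.0057 and Kif2a to -0.03. The CRMP family had all 5 genes below 0, from -0.36 for Dpysl5 and Dpysl4 to -0.05 for Dpysl2, with a median of -0.12 (lowest adjusted p = 0.523). Every cKO array of Dpysl5 lay below every WT array, from 1086 to 1289 against 1368 to 1775.

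The growth cone membrane list, with a median of -0.15 over 16 genes, held Cap1, an actin-binding relative of Cap2 placed there, at -0.61, and the adhesion molecules Ncam1 at -0.24 and Cntn2 at -0.22. With the mean of all probe sets Ncam1 came to -0.05. None of these passed (lowest adjusted p = 0.490, for Gap43). Intermediate filaments had a median of -0.17 over 12 genes. Ina, the neuronal filament alpha-internexin, read 3867, 3922 and 4003 in cKO, against 5567, 4987 and 5204 in WT. All cKO arrays lay below WT, and the log2 difference was -0.42 with an SE of 0.11 (adjusted p = 0.264). Nefh, the heavy neurofilament subunit, read from 4.68 to 13.9 in cKO, against 17.3 to 30.1 in WT, without overlap. Its log2 fold change was -0.76 (adjusted p = 0.256 in limma). These values are so close to background that its size is set by the pseudocount, at -1.61 with 1 and -0.30 with 64. Nes, the nestin gene of progenitors, was at 0.30 with every cKO array above WT (adjusted p = 0.596), but at -0.15 with the mean of all its probe sets.

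Motor genes had a median of -0.10 over 22 genes. Dync1i1, a neuronal intermediate chain of dynein, read 772, 973 and 807 in cKO, against 1925, 1324 and 1340 in WT, at -0.82 (adjusted p = 0.188). Kif26a, an atypical kinesin, was at -0.76 (adjusted p = 0.184) without overlap and Kif26b at -0.79 with overlap. Dync1i1 and Kif26a passed with a variance trend and robust estimation (adjusted p = 0.0492 and 0.0485). Actin regulators had a median of -0.04 over 28 genes and tubulin modification and folding genes one of -0.00206 over 15. In the second of these Ttll7, a polyglutamylase of neuronal tubulin, was at -0.42, Vash2, of the family that removes tyrosine from tubulin, at -0.32 and Agbl4, which trims glutamates from tubulin, at -0.26, each without overlap and with adjusted p from 0.283 to 0.616. With the mean of all probe sets Ttll7 came to -0.06 and Agbl4 to -0.12.

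Neuronal genes outside the cytoskeleton had a median of -0.12 over 21 genes, near that of the 10 cytoskeletal genes. Rbfox1, a splicing factor of neurons, read 1372, 1201 and 1194 in cKO, against 2870, 2335 and 2262 in WT, without overlap. Its log2 fold change was -0.97 (SE 0.15, adjusted p = 0.0569 in limma). It passed when dim probe sets were left out (adjusted p = 0.0101), with a pseudocount of 64 (adjusted p = 0.0161), with array weights (adjusted p = 0.0350) and with a variance trend and robust estimation (adjusted p = 0.00464). In the other fits it missed the threshold, with an adjusted p from 0.121 to 0.188 when 1 array was left out, 0.238 without both arrays numbered 3 and 0.135 with the replicate block. Thy1, a surface glycoprotein of neurons, was at -1.03 from dim values (-1.27 with a pseudocount of 1 and -0.65 with 64), and Cdk5r1, the activator p35 of the kinase Cdk5, which phosphorylates tau and doublecortin, at -0.30 (adjusted p = 0.455), both without overlap. With the mean of all probe sets Cdk5r1 came to -0.19. Without both arrays numbered 3, Ina was at -0.43, Dync1i1 at -0.87, Kif26a at -0.90 and Nes at 0.18, and none of the named list genes passed (lowest adjusted p = 0.0879, for Cap2).

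**Figure D4:**
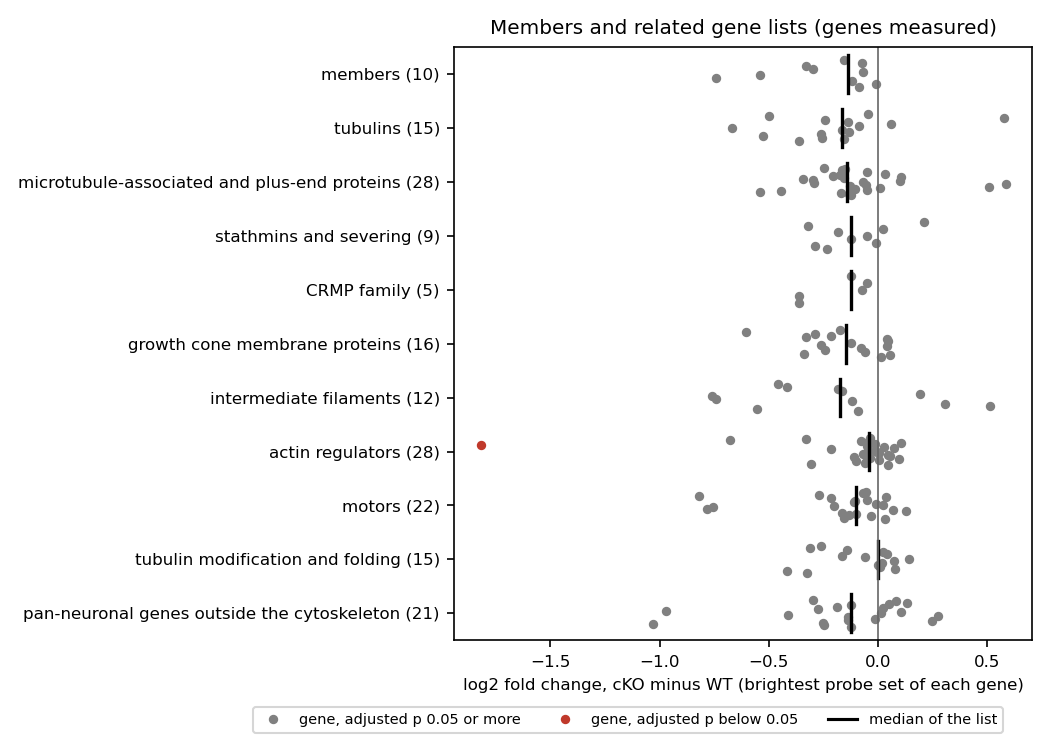
Log2 fold change, cKO minus WT, of each measured gene (points) of the 10 cytoskeletal and growth cone genes and of 10 related lists, with the list median as a black bar and genes past the adjusted threshold in red. Medians lie between -0.17 and -0.00206, and Cap2, at -1.82 among the actin regulators, is the only gene past the threshold.

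The 10 genes did not vary as one block over the 6 arrays. The correlation of a gene's log2 values with the mean of the other 9 ran from -0.43 for Stmn2 to 0.67 for Nefl, and for pairs of genes from -0.85 for Map1b with Stmn2 to 0.98 for Tubb3 with Dpysl3. These are descriptions over 6 arrays that share genotype, number and array-wide shifts. The mean of the 10 centred log2 values was -0.02, -0.32 and -0.02 on the cKO arrays, against 0.04, 0.11 and 0.22 on the WT arrays, with cKO 2 lowest. Of 9081 other named genes with a mean intensity above 200, those whose log2 values followed that mean most closely were Haus7 (r = 0.993), Lix1l, Hnrnpa0, Ing2 and Ckb (r = 0.985 or more). They were picked as the highest of 9081, so no test applies. None of these 5 passed the threshold (lowest adjusted p = 0.590).

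The tissue label was set against marker genes. Of 5 dorsal telencephalon genes, 4 were measured. Lhx2, Pax6, Emx1 and Emx2 were present at means of 688 or more in both genotypes. Emx2 itself was at 688 in cKO and 1241 in WT, without overlap, at a log2 fold change of -0.83 (adjusted p = 0.0714 in limma). Whether Emx2Cre itself had a part in this difference was not tested, and whether WT embryos carried Cre is not given. Projection neuron markers summed to between 35886 and 41561 on cKO arrays and between 40005 and 43947 on WT arrays over 5 genes, 4 of them below 0, with none past the threshold. The brightest of them, Neurod6, was the one above 0, at 19388 in cKO and 16973 in WT. Bcl11b was at 9574 in cKO and 12039 in WT, and Fezf2 at 3280 and 4740. Intermediate progenitor markers summed to 12699 to 13209 in cKO, against 13687 to 14302 in WT, without overlap, over 4 genes of which 2 were below 0. Every cKO array lay below every WT array for 2 of the 4 and above for 1, against 7.64% and 7.9% of all genes. Radial glia markers summed to between 27633 and 30485 in cKO and between 25808 and 31635 in WT.

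Markers of other cells that the dissection could hold ran from near background to well above it. The 4 measured markers of peripheral sensory neurons, which are rich in neurofilaments, summed to between 142 and 237 in cKO and between 89.8 and 201 in WT, each with a mean below 100. Meninges and mesenchyme genes summed to between 320 and 2153 in cKO and between 490 and 679 in WT over 8 genes, and muscle genes to between 165 and 1027 in cKO and between 315 and 510 in WT over 6 genes, both highest on cKO 3. Endothelial genes summed to between 675 and 786 in cKO, against 872 to 898 in WT, without overlap over 6 genes, of which 5 were below 0. Microglia genes summed to between 536 and 782 in cKO and between 618 and 910 in WT over 4 genes, with Itgam near background. Ventral telencephalon genes, which mark cells of interneuron lineages, summed to between 4091 and 4505 in cKO and between 3395 and 4626 in WT over 8 genes. Of these 8, 6 were above 0. Every cKO array lay above every WT array for 3 (Gad1, Lhx6 and the dim Nkx2-1), against 7.9% of all genes. At an unadjusted p under 0.05, 2 of the 8 were higher in cKO, against 5.17% of all genes. None passed the threshold (lowest adjusted p = 0.355 in limma). Gad1, which makes the transmitter GABA, was at 1463 in cKO and 1035 in WT. By mean intensity Gad2 was also higher in cKO, at 491 against 421. The Dlx genes of the list had lower mean intensities in cKO. Dlx1 was at 649 against 815 in WT, Dlx2 at 503 against 518, Dlx5 at 318 against 321 and the dim Dlx6 at 25.5 against 46.1. The part of any of these cells in the values of Mapt, Gap43 or the other genes was not tested.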

How the data were processed

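Biotin-labelled cRNA from 250 ng of total RNA was hybridised to 1 single-colour Affymetrix array per sample, 3 cKO and 3 WT. The authors deposited 1 linear intensity for each probe set of an array. The submitters' processing notes name the Affymetrix Expression Console, and its version and algorithm are not given there. Trimmed means of 497.2 to 497.7 on all arrays show a common scaling. Detection calls were not used here, and the number of arrays limits the precision.

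Intensities were taken to log2(intensity + 16), which shrinks fold changes of dim genes, with no further normalization. All 45037 probe sets were fitted on genotype alone by lmFit and eBayes of limma 3.58.1 (R 4.3.3), p-values were adjusted after Benjamini and Hochberg, and 0.05 was the threshold. A table of 18193 genes, each by its brightest probe set annotated to that gene alone, was fitted and adjusted on its own. Intervals are unadjusted 95% intervals of the moderated fit. Where nothing says embryos came from separate litters, p-values measure only the spread between these samples. The fit was tested on simulated data.

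The genes and lists were chosen with earlier results of these data known. Named genes are all probe sets of the 10, and in each list the genes past the threshold or otherwise the 3 with the smallest p. Other genes named were chosen after their values were seen. The alternatives were 2 other pseudocounts, quantile normalization, median centring, a filter on dim probe sets, trend and robust variance, array weights, the replicate number as a block, leaving out each array or both arrays numbered 3, and the mean of a gene's probe sets.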

Additional observations from a re-analysis of the deposited data

How the results depend on the processing

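Leaving out 1 array in turn, the count of probe sets past the threshold, 124 with all arrays, ran from 19 to 36. It was 48 with a pseudocount of 1, 205 with 64, 252 without the dimmer probe sets, 257 with trend and robust variance, 7 with the replicate block and 8 without both arrays numbered 3. The count over the 25 probe sets stayed at 0 in every one of these fits, and that over the 10 genes became 1, Mapt, without the dimmer probe sets, where fewer are tested, and with trend and robust variance. The median log2 fold change of the 10 genes ran from -0.21 to -0.085 over the fits without 1 array. For the genes of the lists, with 1 past the threshold, the count ran from 0 to 1 over those fits. It was 0 with a pseudocount of 1, the replicate block, without both arrays numbered 3 or with the mean of probe sets, 3 with a pseudocount of 64, 4 without dimmer probe sets, 6 with trend and robust variance and 2 with array weights. Their median was -0.16 with median centring, which moved the median of all genes to -0.04. The cause of these moves was otherwise not tested.

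Signs turned for some values near 0 and for some further from it, such as -0.30 for Map1b 1450397_at with all arrays. Over the fits without 1 array, log2 fold changes ran from -0.14 to 0.13 for Stmn2 1423281_at, -0.20 to 0.029 for 1423280_at, -0.18 to 0.41 for Dcx 1448974_at, -0.31 to 0.18 for Map2 1440699_at, -0.20 to 0.11 for Map2 1421327_at, -0.61 to 0.033 for Map1b 1450397_at, -0.47 to 0.11 for 1421851_at, -0.12 to 0.33 for 1421850_at, -0.22 to 0.39 for Dpysl3 1415877_at, -0.33 to 0.11 for 1438789_s_at and -0.31 to 0.088 for Nefm. Stmn2 1423281_at was 0.0053 with quantile normalization and 0.023 with array weights (0.028 in the gene table), and Map2 1421327_at was 0.060 with array weights and 0.00028 without both arrays numbered 3. With the mean of probe sets Fignl1 came to 0.0057 and Nes to -0.15. The 4 Mapt probe sets and Gap43 kept their direction in every fit. So did Dcx 1418139_at, 1418141_at and 1418140_at, Map2 1421328_at and both Nefl probe sets. Map2 1434194_at and Dpysl3 1454613_at, both at -0.07, and Tubb3, at -0.09, did too. A kept sign was therefore not particular to Mapt and Gap43. Deviations of same-numbered arrays correlated at 0.08, 0.19 and 0.41. The arrays cKO 2 and cKO 3 correlated best with the WT array of their own number, while cKO 1 correlated best with WT 2 (0.16). The numbers were not taken as pairs. The replicate block, which rests on a shared number only, left Mapt 1424719_a_at at -0.54 (adjusted p = 0.352).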
